A study of Mus musculus with 12 samples.

Results

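The glucocorticoid receptor, its chaperones and its feedback genes were followed in cultured oligodendrocyte precursor cells (OPCs) of the mouse, which divide and can mature into the cells that make myelin. The 8 genes were taken by name: Nr3c1, Nr3c2, Fkbp5, Fkbp4, Tsc22d3, Hsd11b1, Dusp1 and Sgk1, out of 55536 genes quantified. The cells were taken from the brains of P4 to P6 pups, several pooled, and isolated by sorting of Sox10-GFP+ cells or with CD140a beads, without a statement of which library had which. They were grown with PDGFaa and bFGF and then left untreated (Ctr), given dexamethasone at 1 µM (Dexa) or given IFN-gamma at 100 ng/ml (IFNg), each for 48 hours, in 4 replicates from different litters. All labels also name the EAE mouse model, although the cells are those of pups. The study's reporter line carries hemizygous Sox10:Cre and an RCE:LoxP(EGFP) allele on a mixed background, so GFP marks all cells that have used the Sox10 promoter, and which libraries came from that line was not given. No label gives the steroid content of the medium supplements, which all 3 groups share.

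Dexamethasone is a synthetic glucocorticoid that binds the receptor encoded by Nr3c1. Without hormone the receptor sits in the cytoplasm in a complex with HSP90 and co-chaperones. FKBP51, encoded by Fkbp5, keeps its affinity for hormone low, and FKBP52, encoded by Fkbp4, favours hormone binding and movement into the nucleus. In the nucleus the receptor binds response elements as a dimer and raises genes such as Fkbp5 itself, which closes a short feedback loop, Tsc22d3 (GILZ, a leucine zipper protein that restrains inflammatory transcription factors), Sgk1 (a kinase that acts on ion transport and survival) and Dusp1 (a phosphatase that switches off MAP kinases). Nr3c2 encodes the mineralocorticoid receptor, which also binds glucocorticoids, and Hsd11b1 encodes the enzyme that regenerates active glucocorticoid inside the cell from its inert form.

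All 12 libraries had values, but the deposited table of Dexa replicate 3 stopped after 33.7% of the transcripts and held only Hsd11b1 and Sgk1 of the 8 genes, so tests over all genes used 11 libraries (4 Ctr, 3 Dexa, 4 IFNg), with 19209063 to 52074652 estimated reads each. Of the 8 genes, 7 passed a minimum of 10 reads in 4 libraries, among 17919 genes tested. Hsd11b1 did not. Markers of the named cell type were present in every library, with the summed level of 10 OPC markers at 866 to 2067 TPM (a level scaled for transcript length and library depth) in Ctr, 1033 to 2204 TPM in Dexa and 713 to 1589 TPM in IFNg. Summed TPM of 8 astrocyte markers was 149 to 317 in Ctr, 308 to 477 in Dexa and 269 to 435 in IFNg, and that of 7 neuron markers was 13.6 to 16.5, 18.0 to 21.2 and 27.3 to 60.2, and the part of either in the results below was not tested. The 9 oligodendrocyte markers summed to 58.2 to 235 TPM in Ctr, 72.8 to 256 in Dexa and 49.7 to 147 in IFNg. The 9 microglia markers summed to at most 6.34 TPM in any library, with Aif1, Cx3cr1 and Tyrobp at 3 reads or fewer in each, and the 7 endothelial and pericyte markers to at most 1.44 TPM, with Cldn5 and Kcnj8 at 3 reads or fewer. With the replicate number as a block, DESeq2 called 29.2% of all genes under IFN-gamma, 2717 higher and 2521 lower. Among the markers it called 7 of the 10 OPC markers lower, and 4 astrocyte markers higher and 3 lower. It also called 2 neuron markers higher and 2 lower, 2 oligodendrocyte markers lower and 1 endothelial or pericyte marker lower. In bulk RNA, a change in the share of a cell type and a change in the RNA per cell cannot be told apart.

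Sequences before the transcription start were examined because the receptor's response element is a fixed pair of arms, AGAACA and TGTTCT, spaced by any 3 bases. RefSeq (GRCm38.p6) gave 14 windows from 250 bases before to 50 after a start for 7 of the 8 genes, and none was listed for Nr3c1. The full element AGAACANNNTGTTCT occurred in 1 of the 14 windows and in 3 of 32851 windows over all genes (0.00913%). That window belongs to Sgk1. A looser core, GNACANNNTGTNC, occurred in 0.475% of all windows and in no further window of the 8 genes, and at least 1 arm occurred in 19.0% of all windows and in 4 of the 14. The interferon-type gamma-activated site TTCNNNGAA occurred in 8.30% of all windows and in 2 of the 14, at Sgk1-204 and at an inner start of Tsc22d3. Both strands were searched, and the arms counted include those inside the full element. The stretches below are shown because Fkbp5, Tsc22d3, Sgk1 and Nr3c2 are the genes that were called in at least 1 of the fits described below. Sgk1 and Tsc22d3 had several windows, and those shown were picked for the full element (Sgk1) or an arm (Tsc22d3). The stretches hold the upstream bases that lie in no annotated exon, 5' to 3' on the strand of the gene, with matches to the element, its arms or TTCNNNGAA in capitals.
Sgk1-202, chr10:21993640-21993889, plus strand: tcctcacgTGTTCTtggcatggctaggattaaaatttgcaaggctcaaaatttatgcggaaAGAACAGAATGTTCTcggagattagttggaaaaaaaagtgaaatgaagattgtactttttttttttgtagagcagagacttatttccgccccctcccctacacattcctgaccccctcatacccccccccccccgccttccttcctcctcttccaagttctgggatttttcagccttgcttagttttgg
Tsc22d3 distal start, chrX:140600660-140600772, minus strand: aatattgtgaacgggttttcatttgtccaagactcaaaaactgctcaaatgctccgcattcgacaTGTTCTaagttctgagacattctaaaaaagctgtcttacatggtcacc
Fkbp5-201, chr17:28486150-28486399, minus strand: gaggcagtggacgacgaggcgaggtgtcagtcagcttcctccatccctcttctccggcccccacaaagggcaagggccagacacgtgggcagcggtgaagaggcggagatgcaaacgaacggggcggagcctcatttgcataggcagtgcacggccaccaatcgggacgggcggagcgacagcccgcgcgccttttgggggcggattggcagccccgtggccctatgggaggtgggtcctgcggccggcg
Nr3c2, chr8:76902080-76902287, plus strand: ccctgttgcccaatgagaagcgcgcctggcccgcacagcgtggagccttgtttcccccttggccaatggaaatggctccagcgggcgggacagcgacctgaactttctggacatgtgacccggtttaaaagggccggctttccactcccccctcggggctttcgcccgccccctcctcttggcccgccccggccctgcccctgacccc
The Sgk1 element, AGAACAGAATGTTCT, begins 189 bases before the start of Sgk1-202 and 965 bases before that of Sgk1-201, the transcript with the largest share of the gene's reads. Sgk1-202 itself held 2.86% of the gene's reads. The distal Tsc22d3 window held a single arm. The windows at Sgk1-201 and Tsc22d3-202, with 48.2% and 62.3% of the reads of their genes, held none of the patterns. Neither the Fkbp5 nor the Nr3c2 window held any of the patterns, which says only that these letters are not within that window.

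The levels of the 8 genes in untreated OPCs differed widely on the TPM scale. Fkbp4 was the most abundant at 85.2 ± 7.27 TPM (SD, n = 4), ahead of 96.7% of the genes tested. Sgk1 followed at 26.2 ± 15.2 TPM, with a range of 7.13 to 39.1 TPM that reached below the levels of Nr3c1 at 11.8 ± 1.06 TPM and Fkbp5 at 9.98 ± 1.59 TPM. Nr3c1 and Fkbp5 overlapped each other in their ranges. Tsc22d3 was just below Fkbp5 at 7.47 ± 0.966 TPM, its highest library at 8.57 TPM against 8.59 TPM in the lowest for Fkbp5. Dusp1 lay lower at 2.94 ± 0.663 TPM, and Nr3c2 was near the bottom of the tested genes at 0.287 ± 0.0922 TPM, ahead of 16.6% of them. Hsd11b1 had 1, 4, 10 and 0 estimated reads in the Ctr libraries, 2, 3, 3 and 0 in the Dexa libraries and 1, 1, 0 and 0 in the IFNg libraries, so no difference between groups was detectable at this depth, where a count of 0 allows up to 3 reads. OPCs in this culture held the 2 receptors at unequal levels, with Nr3c1 at 28.8 to 66.5 times the TPM of Nr3c2 in Ctr, 19.6 to 42.9 times in Dexa and 6.44 to 20.1 times in IFNg.

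The genes lie apart on the genome (GRCm38). Nr3c1 spans 39410545 to 39519421 of chromosome 18 (minus strand), and Nr3c2 76899442 to 77245012 of chromosome 8 (plus strand). Fkbp4 spans 128429735 to 128438677 of chromosome 6, Dusp1 26505590 to 26562128 of chromosome 17 and Hsd11b1 193221634 to 193264075 of chromosome 1, each on the minus strand. Fkbp5 and Dusp1 share chromosome 17, and values of a gene are sums over its annotated transcripts.

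**Figure D1:**
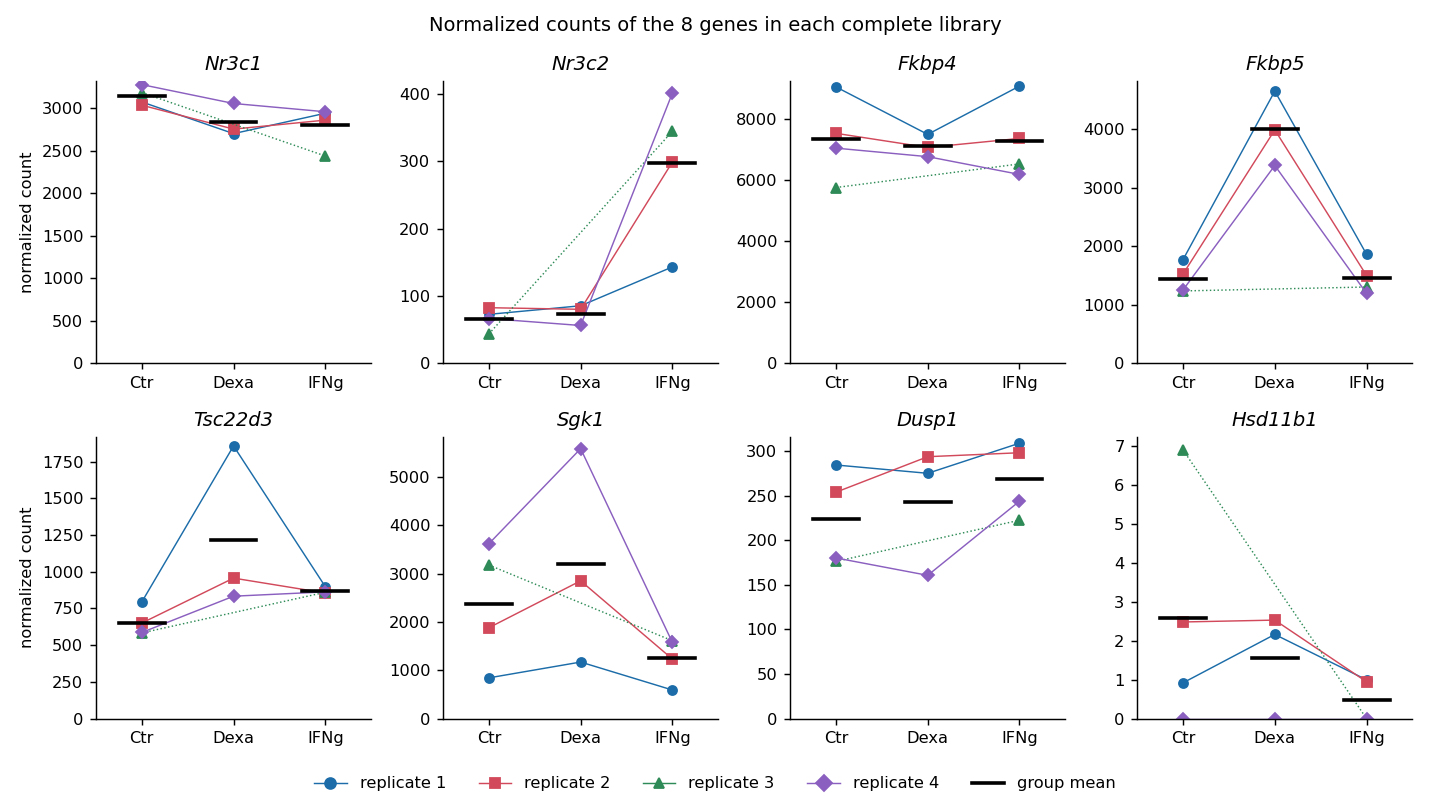
Normalized counts (reads divided by the library's size factor, vertical axis from 0) of each of the 8 genes in the 11 complete libraries, by group, with lines joining libraries of the same replicate number (dotted where Dexa replicate 3 is missing) and bars at the group means. Fkbp5 in the 3 Dexa libraries sits between 3379 and 4651, above all Ctr and IFNg libraries, and Nr3c2 in the 4 IFNg libraries sits between 143 and 402, above all others.

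Among the genes of the receptor pathway, dexamethasone raised Fkbp5 most plainly. Its normalized count was 1769.7, 1523, 1233.6 and 1251 in Ctr replicates 1 to 4, and 4651, 3988 and 3379 in Dexa replicates 1, 2 and 4, so the groups did not overlap. DESeq2 gave a log2 fold change of 1.47 ± 0.20 (SE), or 2.77-fold, and the adjusted p was 3.99e-10. By replicate number the ratio was nearly constant, between 2.62-fold and 2.70-fold in all 3 pairs. With edgeR the adjusted p was 0.0106. In this comparison 0.547% of all genes were called by DESeq2 and 0.123% by edgeR, and either tool, on counts and group alone over the 11 libraries, called 1 of the 7 genes tested, Fkbp5. With the replicate number as a blocking term, 2.57% of all genes and 3 of the 7 were called, all 3 higher. The groups did not overlap for 2 of the 7, Fkbp5 and Tsc22d3, against 4.26% of all genes.

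The receptor genes themselves and Fkbp4 did not pass the test under dexamethasone. Nr3c1 was 3141 ± 110 in Ctr (SD, n = 4) and 2835 ± 191 in Dexa (n = 3), with a log2 difference of -0.15 ± 0.09 (95% interval -0.33 to 0.03, adjusted p = 1 in DESeq2). It was lower in 3 of 3 pairs, and the groups overlapped by 1 library. Fkbp4 was 7350 ± 1363 in Ctr and 7114 ± 367 in Dexa, a log2 difference of -0.05 with an interval of -0.40 to 0.31. The TPM ratio of Fkbp4 to Fkbp5 was 7.68 to 9.77 in Ctr, 2.67 to 3.44 in Dexa and 7.85 to 9.82 in IFNg. Nr3c2, at 32 to 95 estimated reads in Dexa, had a log2 difference of 0.17 with a wide interval of -0.55 to 0.88.

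Tsc22d3 was higher under dexamethasone in every complete library, but its size differed between them. Normalized counts were 794, 651, 583 and 586 in Ctr replicates 1 to 4 and 1856, 957 and 833 in Dexa replicates 1, 2 and 4. The groups did not overlap, and Dexa replicate 1 stood far above the others. The log2 fold change was 0.90 ± 0.26, which was not called (adjusted p = 0.0884 in DESeq2, 0.536 in edgeR). A fit of Ctr and Dexa without the IFNg libraries gave 0.89 (adjusted p = 0.375 in DESeq2). Blocked by replicate number, the log2 fold change was 0.81 ± 0.17 and was called (adjusted p = 1.0e-04 in DESeq2, 0.0368 in edgeR). The folds within pairs were 2.34, 1.47 and 1.42 for replicates 1, 2 and 4, and without Dexa replicate 1 the log2 fold change without the block was 0.46 (adjusted p = 0.362 in DESeq2). Without Ctr replicate 1 or Dexa replicate 4 it was 1.00 or 1.11 and was called (adjusted p = 0.0403 and 0.00441 in DESeq2), as it was with transcript length offsets (adjusted p = 0.0302).

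Sgk1 was higher within each pair, while its level differed several-fold between replicates. Normalized counts in Ctr replicates 1 to 4 were 844, 1882, 3179 and 3620.4, and in Dexa replicates 1, 2 and 4 they were 1171, 2853 and 5589. The groups overlapped, and replicate 1 was the lowest library in each group. The unblocked log2 fold change was 0.43 ± 0.57 (adjusted p = 1 in DESeq2), or -0.24 without Dexa replicate 4, and the blocked one was 0.54 ± 0.14 (adjusted p = 0.00371 in DESeq2, 0.0906 in edgeR). Dexa replicate 3 also lists Sgk1. Over the genes that it lists, its normalized count was 3977 against 3002 in Ctr replicate 3, or 1.32-fold, so Sgk1 was higher in 4 of 4 pairs. With that library added, the blocked log2 change was 0.53 ± 0.12 (adjusted p = 5.7e-04 in DESeq2).

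Dusp1 did not pass in any of these fits. It was 285, 254, 176 and 180.3 in Ctr replicates 1 to 4 and 275, 294 and 161 in Dexa replicates 1, 2 and 4, and was higher in 1 of 3 pairs. The log2 difference was 0.13 ± 0.26 (interval -0.38 to 0.64), so at 92 to 410 estimated reads a change of the size seen for Fkbp5 lies outside the interval. The values are those after 48 hours, and no earlier time was measured.

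**Figure D2:**
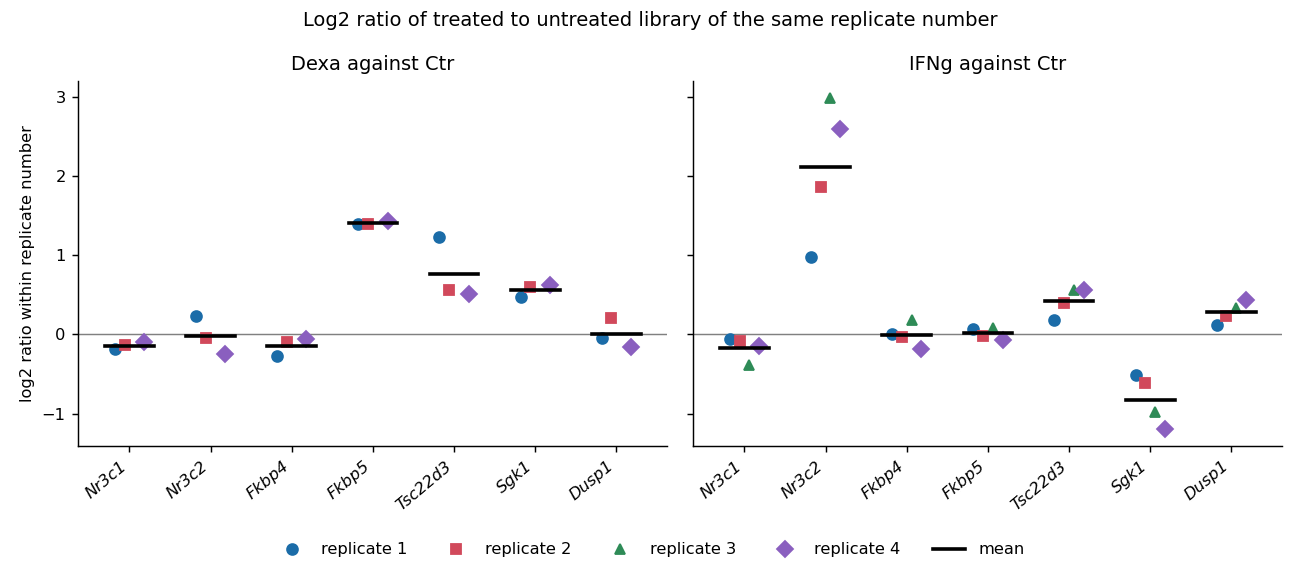
Log2 ratio of the normalized count in the treated library to that in the Ctr library of the same replicate number (vertical axis), for 7 genes under Dexa (3 pairs) and IFNg (4 pairs), with bars at the means. The Fkbp5 ratios under Dexa lie together at 1.39 to 1.43, and those of Nr3c2 under IFNg spread from 0.98 to 2.99.

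IFN-gamma raised the mineralocorticoid receptor gene. Nr3c2 had normalized counts of 72.5, 82.4, 43.4 and 66.2 in Ctr replicates 1 to 4 and 143, 299, 345 and 402 in IFNg replicates 1 to 4. The groups did not overlap, and IFNg replicate 1 was the lowest of its group. The log2 fold change was 2.17 ± 0.33, or 4.49-fold (adjusted p = 1.46e-09 in DESeq2, 0.00132 in edgeR), and the folds within pairs ran from 1.97 to 7.95. Its level stayed low on the TPM scale, at 1.30 ± 0.482 TPM in IFNg (SD, n = 4), and rested on 61 to 133 estimated reads in Ctr and 144 to 317 in IFNg. The transcript Nr3c2-203, named after its values were seen, held 60.2% of the gene's reads over the complete libraries. Its share was 46.6 ± 8.21% in Ctr and 64.1 ± 26.5% in IFNg (SD, n = 4 each). It had 40.3, 35.8, 22.0 and 24.4 normalized counts in Ctr replicates 1 to 4 and 95.5, 77.1, 280.3 and 332 in IFNg replicates 1 to 4, while Salmon placed 61.5% of the gene's reads of IFNg replicate 2 on Nr3c2-204. In this comparison 12.8% of all genes were called by DESeq2, 8.44% by edgeR and 29.2% with the replicate block, against 1, 1 and 3 of the 7 genes. The groups did not overlap for 3 of the 7 (Nr3c1, Nr3c2 and Tsc22d3), against 14.3% of all genes.

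Under IFN-gamma, Sgk1 fell and Tsc22d3 rose once the replicate number was in the model. Sgk1 had 592, 1233, 1612 and 1576 normalized counts in IFNg replicates 1 to 4, below the Ctr library of the same number in 4 of 4 pairs, with the groups overlapping. Its log2 fold change was -0.93 ± 0.52 without the block (adjusted p = 0.297 in DESeq2) and -0.82 ± 0.12 with it (adjusted p = 3.07e-10 in DESeq2, 5.2e-04 in edgeR). Tsc22d3 had 898, 855, 860.2 and 863 normalized counts, a narrow range that lay above all 4 Ctr libraries. Its log2 fold change was 0.41 ± 0.24 without the block (adjusted p = 0.319 in DESeq2) and 0.43 ± 0.15 with it (adjusted p = 0.0155 in DESeq2, 0.0454 in edgeR). Without Dexa replicate 1 the unblocked change was 0.41 ± 0.12 and was called (adjusted p = 0.00914 in DESeq2).

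Fkbp5 and Fkbp4 under IFN-gamma were close to Ctr. Fkbp5 had 1860.0, 1497, 1301 and 1191 normalized counts in IFNg replicates 1 to 4, a log2 difference of 0.02 with an interval of -0.35 to 0.39. With the block the interval was -0.12 to 0.15. Fkbp4 differed by -0.01 (interval -0.34 to 0.32) and was higher in 2 of 4 pairs. Nr3c1 was 2797 ± 245 in IFNg (SD, n = 4) and lay below all Ctr libraries, with a log2 difference of -0.17 ± 0.08 (adjusted p = 0.213 in DESeq2, 0.0791 with the block), so it was not called. Dusp1 was higher in 4 of 4 pairs, by 0.12 to 0.44 on the log2 scale, and was not called either (adjusted p = 0.593 in DESeq2, 0.106 with the block).

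Set directly against each other, the treatments differed for Fkbp5 and Nr3c2. From Dexa to IFNg, Fkbp5 was lower by a log2 difference of -1.45 ± 0.20 (adjusted p = 3.28e-11 in DESeq2) and Nr3c2 higher by 2.0 ± 0.36 (adjusted p = 7.85e-07 in DESeq2), in a comparison that called 13.1% of all genes. Sgk1 was lower in IFNg in 3 of 3 pairs, with a log2 difference of -1.35 ± 0.57 without the block (adjusted p = 0.101 in DESeq2) and -1.36 ± 0.14 with it (adjusted p = 6.73e-22 in DESeq2). Without Ctr replicate 1 or Dexa replicate 1 the unblocked fit also called Sgk1 (adjusted p = 0.0434 and 0.0196 in DESeq2). Tsc22d3 was not called in this contrast, at -0.49 ± 0.26 without the block and -0.38 ± 0.17 with it (adjusted p = 0.245 and 0.0656 in DESeq2). Both treatments were compared with the same Ctr libraries, so their changes are given side by side and not correlated.

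The transcripts of Tsc22d3 start at several places on chromosome X (GRCm38, 140539528 to 140600659, minus strand). Tsc22d3-203 starts farthest upstream, at 140600659, Tsc22d3-201 at 140543187, and Tsc22d3-202, which the annotation calls a processed transcript, at 140542668. Over the complete libraries Salmon placed 62.3% of the gene's reads on Tsc22d3-202, 23.8% on Tsc22d3-201 and 7.55% on Tsc22d3-203. The transcripts overlap towards their 3' ends, so reads there are divided by the model and not observed as one or the other.

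Within each pair, the fold under dexamethasone was larger for Tsc22d3-201 and Tsc22d3-203 than for Tsc22d3-202, and no change in usage was called. Tsc22d3-201 had 174, 133, 49.9 and 109.5 normalized counts in Ctr replicates 1 to 4 and 753, 326 and 156 in Dexa replicates 1, 2 and 4, with folds within pairs of 4.33, 2.46 and 1.42. Tsc22d3-203 had 98.2, 47.6, 17.1 and 24.6 in Ctr and 330.4, 88.9 and 60.0 in Dexa, with folds of 3.36, 1.87 and 2.44. Tsc22d3-202 had 475, 443, 489 and 430.1 in Ctr and 684, 459 and 503 in Dexa. The share of Tsc22d3-202 was 71.3 ± 10.1% in Ctr (SD, n = 4) and 48.4 ± 11.7% in Dexa (n = 3), overlapping, and a two-sided exact permutation test gave p = 0.114, where 0.0571 is the smallest this design allows. In a limma test of each transcript against the rest of its gene, which called 0.00649% of 46197 transcripts, the log2 relative changes were -1.47 ± 0.49 for Tsc22d3-202, 1.13 ± 0.57 for Tsc22d3-201 and 0.93 ± 0.59 for Tsc22d3-203, each with an adjusted p of 1.

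Under IFN-gamma the distal Tsc22d3-203 was lower while the gene as a whole was higher. Its normalized count was 34.2, 12.8, 12.01 and 10.3 in IFNg replicates 1 to 4, below the Ctr library of the same number in 4 of 4 pairs. Its share was 6.70 ± 4.20% in Ctr and 1.97 ± 1.23% in IFNg (SD, n = 4 each), with overlap through IFNg replicate 1 (exact two-sided permutation p = 0.0571). Its log2 relative change was -1.77 ± 0.54 (limma adjusted p = 0.747, and 0.0984 with the replicate block), so no change in usage was called, in a comparison that called 0.0952% of transcripts. Tsc22d3-202 had 530.4, 682, 627 and 687 normalized counts, above all 4 Ctr libraries, and kept a share of 72.8 ± 9.74% (exact p = 0.886).

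The reads of Fkbp5 belonged almost entirely to 1 transcript. Fkbp5-201, which starts at 28486149 on chromosome 17 (GRCm38, gene 28399094 to 28517527, minus strand), held 92.6 ± 1.09% of the gene's reads in Ctr, 93.6 ± 0.801% in Dexa and 94.6 ± 2.11% in IFNg. It carried the rise under dexamethasone, with 1635, 1401, 1163 and 1151 normalized counts in Ctr replicates 1 to 4 and 4395, 3704 and 3157 in Dexa replicates 1, 2 and 4. The shares overlapped in both comparisons (exact two-sided permutation p = 0.229 for Dexa and 0.257 for IFNg). Every other transcript of the gene held at most 6.74% of its reads in any library, the highest being Fkbp5-203 in Ctr replicate 4. In all, 8 shares of Tsc22d3 and Fkbp5 were tested.

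**Figure D3:**
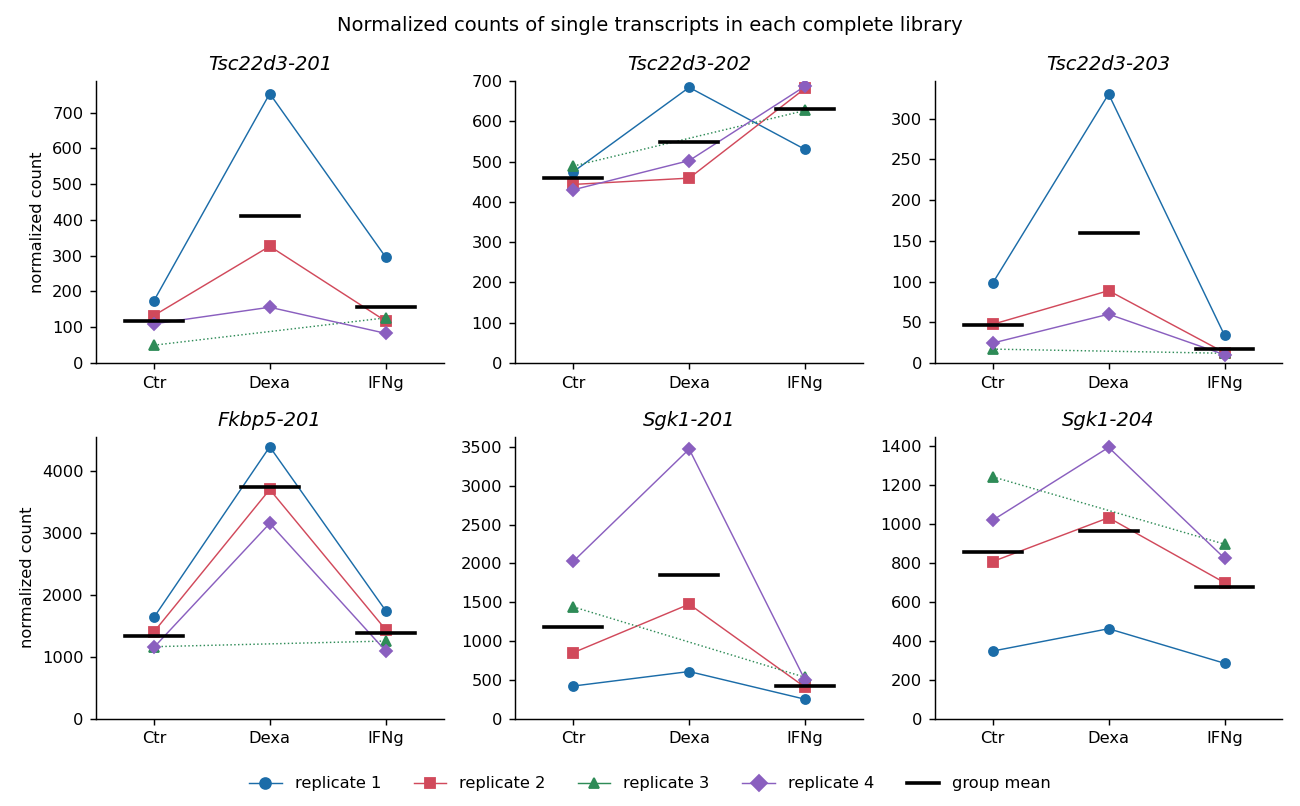
Normalized counts of 6 transcripts (vertical axis from 0) in the 11 complete libraries by group, with lines joining libraries of the same replicate number (dotted where Dexa replicate 3 is missing) and bars at the group means. Tsc22d3-203 lies at 10.3 to 34.2 in IFNg and 60.0 to 330.4 in Dexa, and Sgk1-201 falls below its Ctr partner in all 4 IFNg libraries.

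The transcripts of Sgk1 (chromosome 10, 21882184 to 21999903, plus strand) were examined after their values were seen. Sgk1-201 starts downstream of the response element shown above and Sgk1-204 starts far upstream, at 21882184. The share of Sgk1-201 was 49.0 ± 5.08% in Ctr, 55.2 ± 6.002% in Dexa and 34.9 ± 4.90% in IFNg. That of Sgk1-204 was 37.8 ± 6.63%, 33.5 ± 7.61% and 53.2 ± 3.89%. In normalized counts both were higher in Dexa replicates 1, 2 and 4 than in their Ctr partners. The folds were 1.45, 1.73 and 1.71 for Sgk1-201 and 1.33, 1.28 and 1.37 for Sgk1-204. From Ctr to Dexa both shares overlapped between groups (exact two-sided permutation p = 0.229 for Sgk1-201 and 0.4 for Sgk1-204). From Ctr to IFNg neither overlapped between groups (exact two-sided permutation p = 0.0286 for each, the smallest that 4 against 4 allows), and neither was called over all transcripts (limma adjusted p = 0.509 and 0.647). The share of Sgk1-206, with 5.59% of the gene's reads, was also tested. It overlapped in both comparisons (exact two-sided permutation p = 0.629 for Dexa and 0.886 for IFNg). As shares of TPM, Sgk1-201 was 31.8% to 43.9% in Ctr and 24.1% to 33.7% in IFNg, which overlapped (exact permutation p = 0.0571), while Sgk1-204 still did not overlap (exact permutation p = 0.0286). In normalized counts Sgk1-201 was 420, 850, 1440 and 2026 in Ctr replicates 1 to 4 and 250, 405, 532 and 497 in IFNg replicates 1 to 4, whereas Sgk1-204 was 347, 808, 1243 and 1020.1 in Ctr and 285, 699, 897 and 824 in IFNg.

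Genes that act with the receptor were taken from fixed lists and are described by counts and by the median log2 fold change, beside a median of -0.01 for Dexa and -0.02 for IFNg over all genes tested. Calls among these lists are read against the shares called over all genes. For IFNg these were 12.8% without the replicate block and 29.2% with it. For Dexa they were 0.547% and 2.57%. Of the genes named for IFNg from these lists, edgeR called Tsc22d4, Dusp10, Dusp16, Sesn1, Bcl6, Zbtb16 and Cebpb and none of the others. The chaperone cycle that loads hormone onto the receptor had no call under dexamethasone, with 0 of 18 genes passing in DESeq2 or with the replicate block and a median of -0.06. Its most abundant member, the constitutive chaperone Hspa8, differed by -0.04. Under IFN-gamma 1 rose and 2 fell without the block, and 3 rose and 3 fell with it. Ptges3, the p23 co-chaperone that stabilizes the hormone-binding state, rose by 0.41 ± 0.14 (adjusted p = 0.0365 in DESeq2). Bag1, a nucleotide exchange factor for HSP70, changed by -0.46 ± 0.16 (adjusted p = 0.0335), and the heat-inducible Hspa1a by -0.92 ± 0.28 (adjusted p = 0.0129), whose reads cannot be separated safely from those of its near-identical copy Hspa1b.

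Other immunophilins and steroid receptors showed few calls. Of 13 further FK506-binding proteins, Fkbp14, a prolyl isomerase of the endoplasmic reticulum, was the 1 called under dexamethasone, at 0.79 ± 0.18 (adjusted p = 0.00371 in DESeq2, 0.197 in edgeR), and 0 were called under IFN-gamma, where the abundant Fkbp8 differed by -0.02. With the block, Fkbp9 was called higher and Fkbp10 and Fkbp15 lower under IFN-gamma, by log2 changes of 0.47, -0.93 and -0.27 (adjusted p = 7.62e-09, 1.2e-04 and 0.00651 in DESeq2), named after their values were seen. Of 7 other NR3 receptors 5 passed the count minimum and 0 were called in either comparison with or without the block, with Esrra the most abundant at 10.0 TPM in Ctr. Of 16 coregulators 0 were called under dexamethasone, where the corepressor Ncor1 differed by -0.10, and 1 under IFN-gamma, the Mediator subunit Med14 at 0.23 ± 0.08 (adjusted p = 0.0266 in DESeq2), or 2 higher and 2 lower with the block. Among 8 genes of glucocorticoid metabolism and efflux, 6 were tested and 0 were called under dexamethasone, where the electron donor Por differed by 0.05. Under IFN-gamma Abcb1b, a transporter that exports steroids, rose by 0.70 ± 0.21 (adjusted p = 0.0123 in DESeq2, 0.0604 in edgeR), and with the block 2 genes of this list were higher and 2 lower.

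Relatives of the feedback genes had calls of their own. Of the 3 other TSC22 domain genes, Tsc22d4 rose under dexamethasone by 0.63 ± 0.14 (adjusted p = 0.00201 in DESeq2, 0.160 in edgeR) and fell under IFN-gamma by 0.64 ± 0.13 on the log2 scale (adjusted p = 1.82e-05 in DESeq2). Tsc22d2 rose under IFN-gamma by 0.35 ± 0.12 (adjusted p = 0.0367 in DESeq2, 0.0845 in edgeR). The remaining one, Tsc22d1, was lower under IFN-gamma by a log2 difference of -0.61 that was called only with the block (adjusted p = 0.126 in DESeq2 without it, 1.01e-14 with it). Of 9 other MAP kinase phosphatases 0 were called under dexamethasone without the block and 3 with it, all higher. The shares over all genes were 0.547% and 2.57%. The most abundant, Dusp6, differed by 0.52 ± 0.41 without the block. With it, Dusp6 was among those called, at 0.35 ± 0.10 (adjusted p = 0.0142 in DESeq2). Under IFN-gamma 2 rose and 2 fell, or 2 and 3 with the block. Dusp10 and Dusp16, which act on the stress kinases, rose by 1.41 ± 0.22 and 0.74 ± 0.19 (adjusted p = 5.23e-09 and 0.00144 in DESeq2). Dusp9 changed by -3.71 ± 1.01 and Dusp8 by -0.51 ± 0.18 (adjusted p = 0.00327 and 0.0339 in DESeq2), and their groups overlapped. Of 7 genes around SGK1, 5 were tested and 0 were called under dexamethasone, where Pdpk1, its activating kinase, differed by 0.02, and 1 under IFN-gamma, the SGK1 substrate Ndrg1, from 6.60 ± 5.11 to 33.4 ± 12.5 normalized counts (2.31 ± 0.68, adjusted p = 0.00821 in DESeq2, 0.0536 in edgeR). With the block 1 was higher and 2 lower under IFN-gamma.

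Of 20 other known glucocorticoid response genes, 18 were tested under dexamethasone, and 8 rose, 0 fell and 10 did not pass in DESeq2, with a median of 0.59. With the replicate block 11 rose and 0 fell, and edgeR called 4, the genes named next. Over all genes the shares called were 0.547% in DESeq2, 2.57% with the block and 0.123% in edgeR. The list was drawn up with earlier results of these data known and is no independent evidence of its direction. Per1, a clock gene, rose by 1.70 ± 0.16 (adjusted p = 4.32e-23 in DESeq2, 0.00183 in edgeR), and Zbtb16, a zinc finger repressor, by 1.35 ± 0.15 (adjusted p = 8.14e-17 in DESeq2, 0.00474 in edgeR). Hif3a, a hypoxia factor, went from 6.26 ± 6.72 to 648 ± 240 normalized counts, and Sult1a1, a sulfotransferase, from 9.19 ± 3.99 to 149 ± 88.2. Under IFN-gamma the same list had a median of -0.16, with 3 genes higher and 3 lower, or 6 and 4 with the block. There the smallest adjusted p-values were those of Sesn1 at -0.27 ± 0.07, Bcl6 at -0.42 ± 0.10, Zbtb16 at -0.56 ± 0.14 and Cebpb at 1.87 ± 0.49 (adjusted p = 6.8e-04, 8.5e-04, 0.00130 and 0.00216 in DESeq2).

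**Figure D4:**
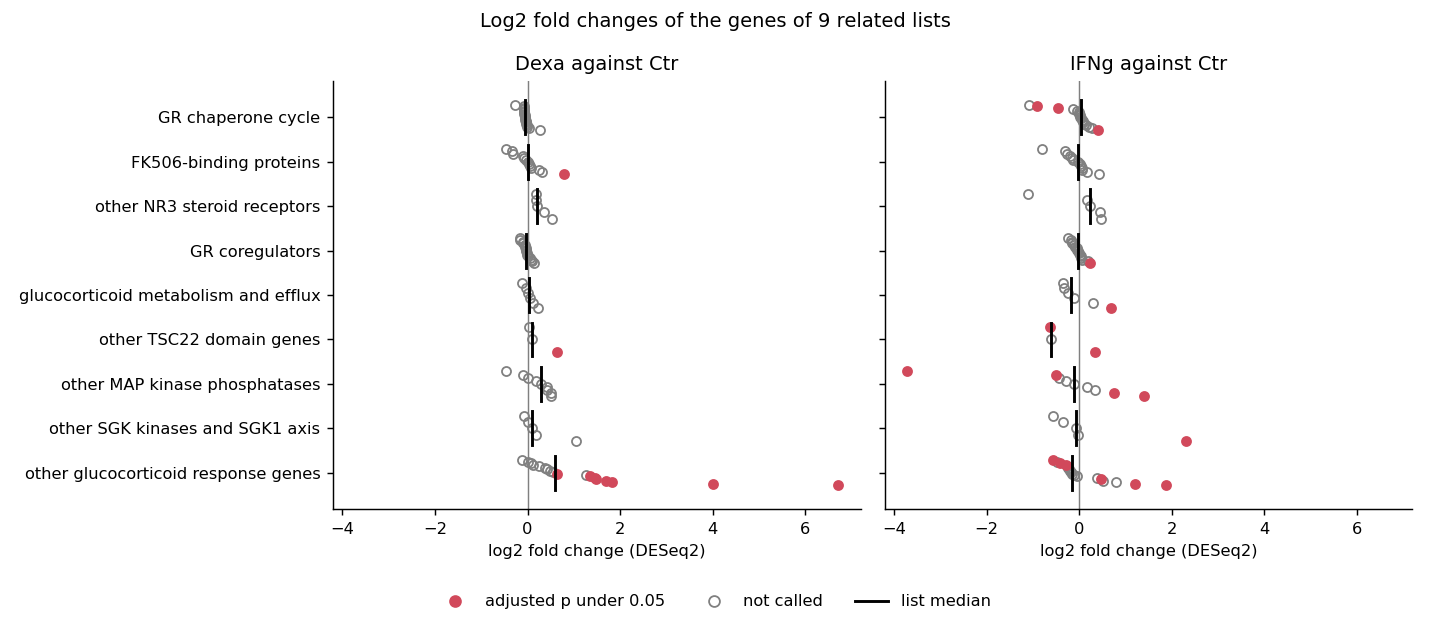
Log2 fold change from DESeq2 (horizontal axis) of each tested gene in 9 lists related to the receptor, for Dexa and IFNg against Ctr, with filled points for an adjusted p under 0.05 and bars at the list medians. Under Dexa 8 of 18 points are filled in the list of other glucocorticoid response genes, against 0.547% of all genes called. That list was drawn up with earlier results of these data known. The 18 chaperone genes stay near 0.

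The genes whose pattern over the 11 libraries was most like that of Fkbp5, by Pearson r of log2 normalized counts among 12156 genes with a mean of at least 100, were Hif3a (0.98), Per1 (0.97), Smox (0.96), Chst2 (0.96) and Mat2a (0.92). For Tsc22d3 they were Smc5 (0.95), Usp29 (0.93), Ccdc15 (0.92), Wdyhv1 (0.91) and Adora1 (0.89). These are descriptions over libraries that share groups and replicate numbers. The first 4 on the Fkbp5 list were called higher by DESeq2 under dexamethasone, against 0.547% of all genes. None of the 5 on the Tsc22d3 list was called, with log2 changes of 0.30 to 0.87. Both lists were picked over these same libraries, the Dexa ones included. The calls therefore follow from that choice and are no separate evidence.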

How the data were processed

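Total RNA libraries (TruSeq Stranded, paired 150 base reads) were quantified by the authors with Salmon 0.8.2. The deposited values are estimated counts and TPM per transcript, whose identifiers match GENCODE M21 (GRCm38). The authors' tables of DESeq2 fold changes and p-values were not used. Estimated counts were summed per gene and rounded. Genes with at least 10 counts in 4 libraries were tested by the DESeq2 1.42.0 Wald test on group, with Benjamini-Hochberg adjustment at 0.05, and edgeR 4.0.16 (quasi-likelihood) was run beside it. Transcript usage was planned with edgeR's diffSpliceDGE, which called many unchanged transcripts in simulated data, so limma 3.58.1 was used on the log2 ratio of a transcript to the rest of its gene (0.5 reads added). The members and lists were chosen with earlier results of these data known. Genes were named if they were members or among the 4 smallest adjusted p-values called in a list and comparison. Where a list had no call, its most abundant gene was named. Transcripts of Tsc22d3 and Fkbp5 were named if they held 5% of the reads.

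Labels give litters, not which litter a number marks, and replicates 3 and 4 of each group share a title prefix of unstated meaning. Deviations from group means correlated at 0.40 to 0.72 in all 10 pairs of same-numbered libraries and at -0.61 to 0.50 in the other 30, the highest of these between replicates 3 and 4, so numbers were taken as pairs. Blocked values are given for the 8 genes where a call changed, and blocked counts for the lists. No libraries of a group agreed within counting noise (chi-square per degree of freedom of 22.3 or more). Size factors were 0.572 to 1.61. Depth sets counting error only. The main fit covered all groups with a spread per gene that they share, so each comparison also rests on the group outside it. Without the block, p-values rest on the spread between the litters within the groups. With it, they rest on how much the treatment differences vary between replicate numbers. Alternatives were edgeR, the block, TMM factors, other filters, transcript length offsets, fits of 2 groups, each library left out, and Dexa replicate 3 added. Adding it with the block, fitting the genes it lists without it, the limma usage test and the Sgk1 shares were chosen after the data were seen.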

Additional observations from a re-analysis of the deposited data

Results flagged for a closer look

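In groups of 4 libraries, 1 value lay far from the other 3 in 2 of 28 groups examined, where chance gives about 5%. The share of Tsc22d3-203 in the gene's reads was 3.80% in IFNg replicate 1, while the next highest IFNg library had 1.498%. The share of Sgk1-201 was 42.1% in IFNg replicate 1, next to 33.0% in the library nearest to it. Both were in the same library, in which Nr3c2 also had the lowest normalized count of its group. Replicate 1 also had the highest share of Tsc22d3-203 in Ctr (12.4%) and in Dexa (17.8%). For Sgk1-201 the highest share was that of replicate 4 in Ctr (56.0%) and in Dexa (62.1%). What sets IFNg replicate 1 apart was not tested.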

How the results depend on the processing

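Under every alternative run, Fkbp5 kept its call for Dexa and Nr3c2 its call for IFNg, with log2 changes of 1.35 to 1.58 and 1.99 to 2.40. Changes near 0 that passed no test switched sign in places, and for these and for the counts the cause was not tested. The replicate block called 460 genes for Dexa, 5238 for IFNg and 5661 for IFNg against Dexa, edgeR 22 and 1513 for the first 2, and edgeR with the block 282, 5606 and 6045, against 98, 2302 and 2345. Over the genes that Dexa replicate 3 lists, so over fewer genes, adding it gave 23, 834 and 1107 calls, leaving it out 25, 830 and 826, and adding it with the block 227 for Dexa.

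Tsc22d3 passed for Dexa with the block (0.81), with edgeR and the block (0.82) and with transcript length offsets (0.92), and for IFNg with the block (0.43), edgeR and the block (0.43) and a fit of 2 groups (0.41). Sgk1 passed with the block (0.54 for Dexa and -0.82 for IFNg, in edgeR only for IFNg at -0.82) and with Dexa replicate 3 added to it (0.53 and -0.82). The block changed no other call of the 7 genes against Ctr. Fkbp5 for IFNg was -0.071 with length offsets.

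Leaving out 1 library gave 59 to 112 genes for Dexa, lowest without Dexa replicate 2. Log2 changes for Dexa were -0.15 to 0.070 for Fkbp4, 0.46 to 1.11 for Tsc22d3, -0.028 to 0.35 for Dusp1 and -0.24 to 0.83 for Sgk1, and for IFNg -0.12 to 0.13 for Fkbp5, -0.13 to 0.11 for Fkbp4 and 0.36 to 0.52 for Tsc22d3.

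Transcripts with changed usage numbered 3 for Dexa and 44 for IFNg, 0 and 24 with the block, 73 and 98 by diffSpliceDGE, and 0 to 17 and 19 to 46 with 1 library left out. For IFNg the relative log2 change ran from -0.17 to 0.43 for Tsc22d3-202 and from -0.47 to 0.26 for Tsc22d3-201 (0.0072 by diffSpliceDGE), and the difference in share from -2.30 to 6.13 and from -4.70 to 3.08 percentage points, or -0.574 for Tsc22d3-202 as a share of TPM. For Dexa that of Sgk1-204 ran from -7.52 to 0.00097. For IFNg the share of Sgk1-201 lost its call as a share of TPM (-10.5 points, exact permutation p = 0.0571). No Sgk1 share can pass with 3 libraries against 4. Nr3c2 and Dusp1 rest on few reads, and Hsd11b1 was too low to compare.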

Other observations

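Calls among markers of the cell types that the culture could hold depended on the replicate block. Over all genes, DESeq2 called 12.8% under IFN-gamma without it and 29.2% with it, and 0.547% and 2.57% under dexamethasone. Without the block, DESeq2 called the OPC marker C1ql1 and Enpp6, a marker of newly formed oligodendrocytes, lower under IFN-gamma, and the astrocyte markers Gfap and Aldoc and the neuron markers Syt1 and Tubb3 higher, by 3.82, 0.78, 1.10 and 1.57 on the log2 scale (adjusted p = 3.98e-09, 0.0399, 1.07e-06 and 1.28e-08). Of these, edgeR called Gfap, Syt1 and Tubb3 (adjusted p = 0.00333, 0.00431 and 0.00167). The other neuron markers tested, Rbfox3, Snap25 and Gad1, had log2 differences of -0.32, -0.46 and -1.17 and were not called. Snap25 and Gad1 were called lower with the block (adjusted p = 0.00256 and 0.00188 in DESeq2). With the block, Enpp6 was not called under IFN-gamma (adjusted p = 0.100 in DESeq2). The oligodendrocyte markers Cnp and Myrf were then called lower, by log2 differences of -0.65 and -1.63 (adjusted p = 4.4e-10 and 2.7e-05 in DESeq2). Of 10 OPC markers 7 were called lower, among them Pdgfra by a log2 difference of -0.61, Cspg4 by -0.60, Sox10 by -0.56 and Gpr17 by -2.09. Under dexamethasone Flt1, an endothelial marker at 0.230 TPM in Ctr, was called by DESeq2 without the block at 1.11 (adjusted p = 0.0425, and 0.515 in edgeR). With the block Cspg4 (0.65), Gfap (1.64), Aldoc (0.98) and Snap25 (0.67) were called higher as well. Which of these changes bear on the genes of the receptor pathway was not tested.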
